A study of Mus musculus with 6 samples.

Results

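The genes described here encode the WNT ligands, their receptors and secreted antagonists, and the factors that carry the signal to the nucleus, in mouse embryonic submandibular glands (eSMGs). They were picked by a rule on gene symbols that uses no measured value. The symbols taken were those of the Wnt, Fzd, Sfrp, Dkk (1 to 4), Rspo and Lgr (4 to 6) families and Lrp5, Lrp6, Wif1, Frzb, Axin2, Lef1, Tcf7, Tcf7l1 and Tcf7l2. The rule found 53 of the 23260 genes of the count tables. They comprised 19 ligands, 12 receptors, 10 antagonists, 7 R-spondins and LGR receptors, and 5 genes of the TCF/LEF factors and Axin2.

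The eSMGs came from ICR mouse embryos at embryonic day 14 and were cultured as whole glands. The treated group received AMD3100 at 50 µM, which blocks the chemokine receptor CXCR4, and the control group did not. RNA was taken 6 h after the start of treatment from up to 10 pooled eSMGs per tube, and 3 tubes per group were sequenced from the 3′ ends of their transcripts. The 2 groups differed in AMD3100 alone, as far as the labels tell. A whole gland holds epithelium, mesenchyme, nerve, vessel and blood cells, so a lower value can come from fewer cells of a type or from less RNA per cell, and these cannot be told apart. The labels do not say whether the tubes came from separate litters, so the p-values measure the spread between tubes, which may be partly technical. The libraries held between 9051595 and 14393031 counts. Levels are given as CPM, counts scaled to a common library size, after TMM normalization. On this scale a floor of 3 counts, set with only counting error in mind, corresponds to between 0.173 and 0.368 CPM. Lower counts also occurred. Since a transcript yields about a read at its 3′ end, CPM was not divided by transcript length.

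WNT ligands are lipid-modified secreted proteins that bind frizzled receptors together with the co-receptors LRP5 and LRP6. In the canonical branch this binding stops the degradation of β-catenin, which then joins TCF/LEF factors at target genes such as Axin2, a negative feedback component. SFRP, WIF1, FRZB and several DKK proteins can hold the signal back outside the cell, whereas R-spondins raise it through the LGR receptors. In the developing salivary gland the pathway is known for its part in branching and in the formation of ducts.

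The tissue label was checked first against its markers. All 10 epithelial and all 10 mesenchymal markers had counts in each of the 6 libraries. Cdh1, the epithelial adhesion molecule E-cadherin, was the most abundant of the epithelial list on average, at 210 to 506 CPM, and Col3a1, a fibrillar collagen of mesenchyme, led the mesenchymal list in every library at 406 to 1419 CPM.

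The libraries of replicate 3 stood apart from the other 4 in both groups. On the first principal component of all genes tested, which held 36.5% of the variance, control replicate 3 lay at 87.4 and AMD3100 replicate 3 at 83.4, whereas the other libraries lay between -103 (AMD3100 replicate 2) and -9.01. The second component, with 27.5%, set control replicate 1 (101) and AMD3100 replicate 2 (-89.2) apart from the rest, which lay between -26.8 and 28.8. The replicate 3 libraries also differed in cell type markers. The summed level of 10 skeletal muscle markers was 1921 CPM in control replicate 3 and 2652 CPM in AMD3100 replicate 3, but 199 to 360 CPM in the other 4. Myog, a muscle transcription factor, led this list in replicate 3 (520 and 485 CPM), whereas Actc1, an actin of embryonic muscle, led it in the others (66.6 to 130 CPM), and only Myod1 in AMD3100 replicate 2 was at 0. The mesenchymal list summed to 2001 and 1774 CPM in the replicate 3 libraries and to 4208 to 4290 CPM in the others. The macrophage list summed to 207 and 166 CPM against 78.0 to 98.3 CPM, with the complement gene C1qa first in replicate 3 (122 and 94.9 CPM) and the receptor gene Csf1r first in the others (26.5 to 43.1 CPM). The list for ganglion neurons summed to 1000 and 1435 CPM against 680 to 896 CPM, with Prph first in replicate 3 and Stmn2, Prph or Phox2a first in the others. The epithelial list was at 606 CPM in control replicate 3 and 1016 CPM in AMD3100 replicate 3, below the 1193 to 1324 CPM of the others. Schwann cell markers, most abundant in Sox10 on average, summed to 81.4 and 40.9 CPM against 107 to 139 CPM. The endothelial list (22.9 to 58.6 CPM over the 6 libraries) and the erythroid list (4800 to 13805 CPM) did not set replicate 3 apart. The summed level of none of these lists separated AMD3100-treated from control eSMGs.

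The groups did not overlap for some single markers, as for 7.44% of all genes tested. The epithelial sum was higher with AMD3100 in each same-numbered pair, from 1197 to 1289, 1193 to 1324 and 606 to 1016 CPM, and all treated libraries were above control for Cdh1. They were all below control for Osr1, a mesenchymal marker, and for C1qb, a macrophage marker. These single markers were named after their values were seen, and the lists they belong to were mixed. Estimates were higher with AMD3100 for 7 of 10 epithelial markers (median log2 fold change 0.20), 4 of 10 mesenchymal markers (-0.06), 5 of 8 macrophage markers (0.06) and 2 of 5 Schwann cell markers (-0.05). In the other lists estimates were higher for 8 of 10 muscle markers (0.42), 5 of 7 neuron markers (0.07), 1 of 7 endothelial markers (-0.45) and 1 of 7 erythroid markers (-0.34), though none of their single markers was called. The muscle sum was higher with AMD3100 only in same-numbered pair 3, from 1921 to 2652 CPM. It was lower in pair 1, from 359 to 244 CPM, and in pair 2, from 360 to 199 CPM. Fabp7, a Schwann cell marker, was at 12.1, 16.9 and 47.1 CPM in control and 5.52, 5.43 and 10.7 CPM with AMD3100 and passed the unadjusted threshold only (log2 fold change -1.82, SE 0.58, unadjusted p = 0.0126, adjusted p = 1.0 in edgeR). Of all genes tested, 1.68% passed the unadjusted p and fold change thresholds given below. The part of the cell type markers in the values of the WNT genes was not tested.

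The same split ran through the WNT genes. Their summed level was 1075 and 1037 CPM in control and AMD3100 replicate 3, against 1555 and 1683 CPM in the other control libraries and 1477 and 1499 CPM in the other AMD3100 libraries. They took 0.0935% to 0.178% of all counts of a library. Those totals include the ribosomal RNA precursor Rn45s, which took from 16.2% (AMD3100 replicate 1) to 32.5% (AMD3100 replicate 2). Both replicate 3 libraries lay outside the range of the other 4 for 16 of the 41 WNT genes tested (39.0%), compared with 44.2% of all genes tested. The 8 that lay below were Sfrp1, Fzd2, Tcf7l2, Wnt4, Lrp6, Fzd7, Dkk3 and Lef1, and the 8 that lay above were Wnt7b, Lgr4, Dkk2, Fzd9, Rspo1, Wnt2, Sfrp4 and Wif1. Fzd7 was the most distinct of those lower, at 6.37 and 7.23 CPM in the replicate 3 libraries and 32.0 to 36.9 CPM in the others. Wnt7b, on the other side, was at 24.9 and 63.0 CPM against 10.8 to 14.0 CPM. The part of the marker differences in these values was not tested.

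**Figure D1:**
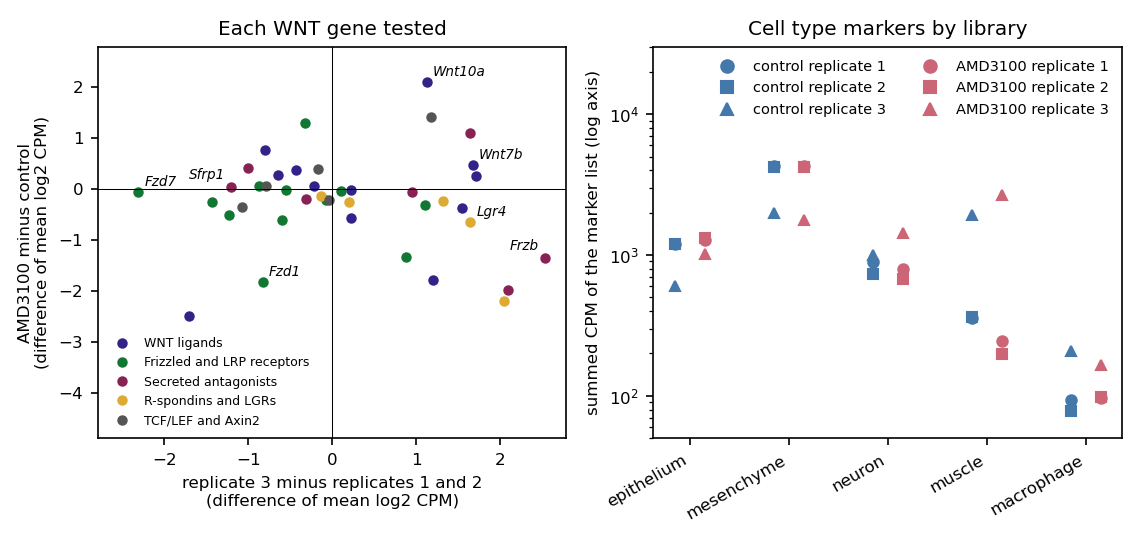
Left, each of the 41 WNT genes tested as a point, with the difference in mean log2 CPM between the replicate 3 libraries and the other 4 on the x axis, and between AMD3100 and control on the y axis; zero CPM values enter through a small prior count. Right, summed CPM (log axis) of 5 cell type marker lists in each library, in which the triangles of replicate 3 are high for muscle (1921 and 2652 CPM) and low for mesenchyme (2001 and 1774 CPM) in both groups.

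Next, AMD3100-treated and control eSMGs were compared. A quasi-likelihood test in edgeR, with TMM factors and condition as the only term, was run on the 13610 genes that passed a filter on low counts, and p-values were adjusted over all of them by Benjamini-Hochberg. Of the 53 WNT genes, 41 passed that filter. No WNT gene was called at thresholds the study uses (unadjusted p under 0.05 and a fold change over 1.5), whereas 228 of all genes were (1.68%), 54 of them higher (0.397%) and 174 lower (1.28%) with AMD3100. With a fold change of at least 2 the number of WNT genes was likewise 0. The lowest unadjusted edgeR p among the WNT genes was 0.0839, for Fzd1, 0 of the 41 had an unadjusted p under 0.05, and all adjusted p-values were 1.0. After adjustment 0 of all genes remained either, and DESeq2 gave 5 of all genes and 0 WNT genes. With AMD3100, 17 WNT genes had a higher estimate and 24 a lower one, with a median log2 fold change of -0.14 against 0.02 over all genes tested, of which 52.2% were higher. For 8 WNT genes AMD3100 was lower in all 3 same-numbered pairs, compared with 14.6% of all genes tested, and for 6 it was higher in all 3, compared with 15.7%. The median over the WNT genes was 0.04, -0.20 and -0.28 in the same-numbered pairs 1 to 3.

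The libraries limited what could be seen. The 95% interval of the log2 fold change included 0 for all 41 WNT genes, and it lay within a 2-fold change in either direction for only 5 of them, Wnt6, Lrp6, Sfrp2, Tcf7l1 and Tcf7l2. The median standard error of the log2 fold change was 0.92 for the 25 genes under 10 CPM and 0.42 for the 16 at or above it. For most WNT genes a change of 2-fold was therefore not excluded by its own interval at this depth and spread.

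**Figure D2:**
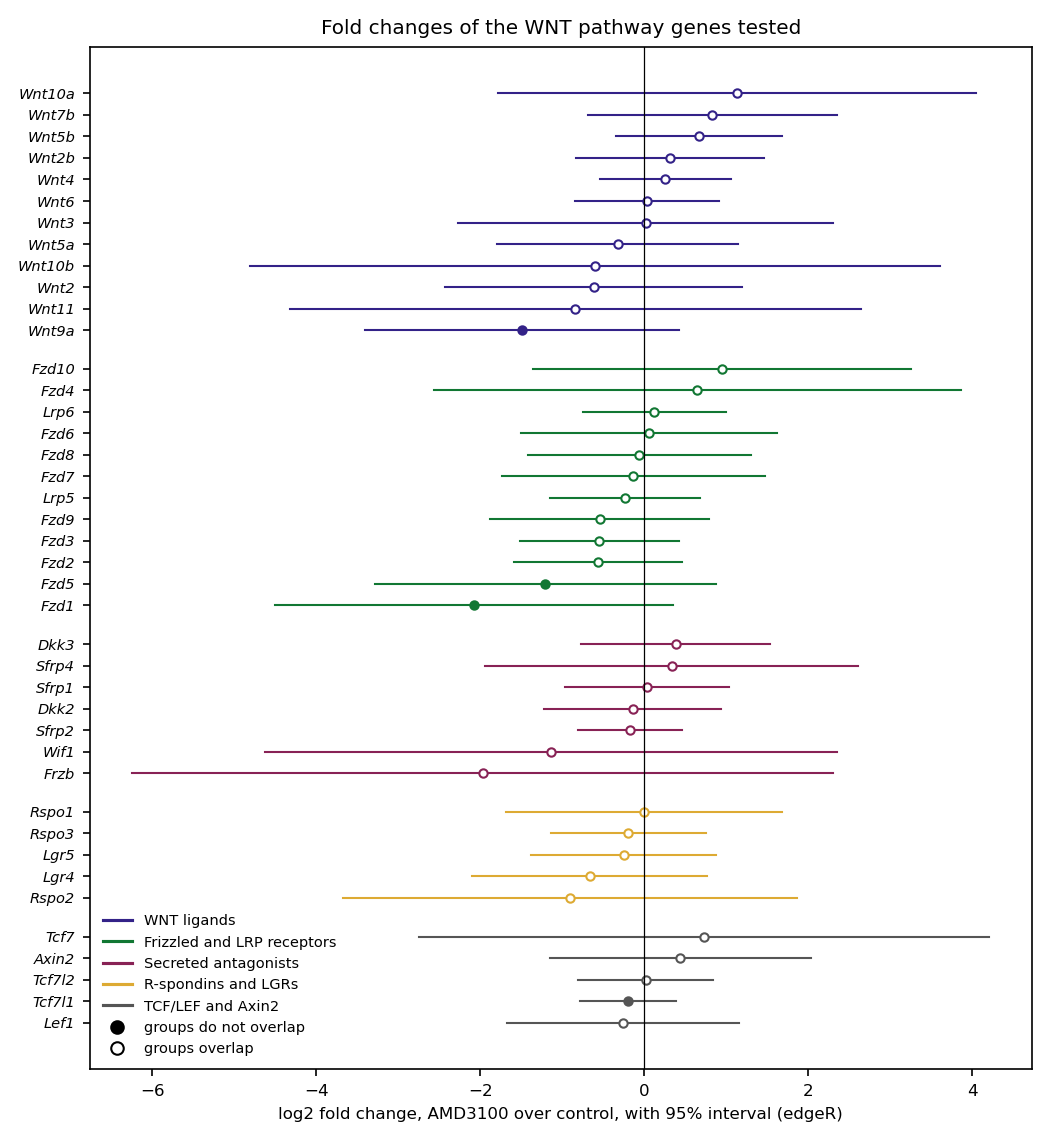
Log2 fold change of AMD3100 over control (x axis) for the 41 WNT genes tested, grouped by role, with points as edgeR's estimates and lines as their 95% intervals; filled points mark genes whose groups did not overlap. All lines cross 0, and the 4 filled points, Fzd1 at -2.08, Wnt9a at -1.50, Fzd5 at -1.21 and Tcf7l1 at -0.20, lie on the lower side.

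The replicate 3 libraries of both groups deviated together, and their deviations from the group means correlated at 0.549 across genes. Libraries numbered 1 and 2 correlated at 0.156 and 0.147 with their own number and at 0.167 and 0.132 with the other. Pairing by number was thus clear only for replicate 3. The replicate number was nevertheless also fitted as a block in edgeR. In this fit 1 of the 41 WNT genes passed both thresholds, compared with 598 of all genes (4.39%). It was Wnt5b, a ligand of the non-canonical branch, with a log2 fold change of 0.77 (SE 0.29, unadjusted p = 0.0253, adjusted p = 0.703 in edgeR). An unadjusted edgeR p under 0.05 was given to 2 WNT genes with the block and to 6.66% of all genes. The second was Fzd2, with the lower p (log2 fold change -0.52, SE 0.14, unadjusted p = 0.00562, adjusted p = 0.488 in edgeR), but its change was under 1.5-fold.

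For 4 of the 41 WNT genes (9.76%) all 3 AMD3100 libraries lay below all 3 control libraries, and for 0 they lay above. Over all genes tested, the groups did not overlap for 7.44%, with 4.17% below and 3.28% above. The 4 genes were the receptors Fzd1 and Fzd5, the ligand Wnt9a and the transcription factor Tcf7l1. Scaling to library totals, with or without the ribosomal RNA precursor Rn45s, left 3 of them, since the groups of Tcf7l1 then overlapped. In an exact permutation test, 3 against 3 cannot go below p = 0.1, which each of the 4 reached.

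Because these genes were the only ones to lie on a single side, their upstream sequences are shown. They are taken from RefSeq on GRCm38.p6, the same build as the mm10 genome named in the submitters' processing notes, and end just before the outermost annotated start of the gene. Capitals mark the letters CTTTGA or CTTTGT, the core that TCF/LEF factors bind, on either strand. Fzd1 is shown from chr5:4758217-4758466, Tcf7l1 from chr6:72789046-72789295 and Fzd5 from chr1:64737751-64738000, all read on the minus strand, and Wnt9a from chr11:59306680-59306848 on the plus strand.
Fzd1: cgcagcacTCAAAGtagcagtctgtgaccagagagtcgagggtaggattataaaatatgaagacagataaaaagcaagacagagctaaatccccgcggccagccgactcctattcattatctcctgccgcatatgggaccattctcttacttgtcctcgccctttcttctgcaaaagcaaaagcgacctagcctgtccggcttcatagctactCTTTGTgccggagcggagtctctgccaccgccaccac
Tcf7l1: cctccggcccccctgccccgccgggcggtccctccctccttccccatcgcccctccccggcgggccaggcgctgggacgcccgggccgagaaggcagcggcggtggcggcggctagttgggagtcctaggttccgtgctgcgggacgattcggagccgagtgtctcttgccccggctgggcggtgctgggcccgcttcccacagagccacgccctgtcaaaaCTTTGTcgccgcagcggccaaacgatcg
Fzd5: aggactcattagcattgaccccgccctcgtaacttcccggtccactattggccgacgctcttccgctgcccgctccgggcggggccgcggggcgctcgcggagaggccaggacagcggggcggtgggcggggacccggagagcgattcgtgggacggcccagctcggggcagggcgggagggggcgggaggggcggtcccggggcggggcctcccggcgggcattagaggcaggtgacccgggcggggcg
Wnt9a: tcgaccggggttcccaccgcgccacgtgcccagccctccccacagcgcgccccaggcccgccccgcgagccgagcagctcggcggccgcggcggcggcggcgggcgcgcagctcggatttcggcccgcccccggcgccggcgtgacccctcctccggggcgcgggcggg
The Fzd1 window held 2 matches, which began 242 bases before the start on the opposite strand and 37 bases before it on the strand of the gene. The Tcf7l1 window held 1, which began 28 bases before the start, and those of Fzd5 and Wnt9a held 0. The Wnt9a stretch was 169 bases long, shorter than the 250 bases of the others, so its 0 is not set against the shares that follow. Among windows of 250 bases before the annotated starts of all genes 27.6% held at least 1 of these 6-letter words, and 25% of the 44 windows of WNT genes did, which covered 36 of the 53 genes. With the first 50 transcribed bases added, the windows of WNT genes had a median GC content of 67.3%, compared with 52.7% for all windows. A match describes the letters only.

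Among the ligands, 12 of 19 passed the filter, of which 7 had higher and 5 lower estimates (median log2 fold change 0.02). Wnt4, the most abundant ligand in CPM and one with roles in epithelial and kidney tubule formation, was at 46.5, 57.7 and 28.6 CPM in control replicates 1 to 3 and at 68.6, 47.2 and 42.4 CPM with AMD3100. The groups overlapped, with the lowest value in control replicate 3. The log2 fold change was 0.25 (SE 0.35). Of 11 reads of 50 bases simulated from the last 300 bases of Wnt4, 2 matched another place about as well and 2 more could not be placed, so its level is less certain.

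Wnt5b was at 33.0, 15.1 and 12.0 CPM in control and 36.3, 36.9 and 22.3 CPM in AMD3100-treated eSMGs. It was higher with AMD3100 in all 3 same-numbered pairs, but control replicate 1 lay within the range of the treated group. The log2 fold change was 0.67 (SE 0.44, unadjusted p = 0.168 in edgeR), and without control replicate 1 it was 1.22 (unadjusted p = 0.0184, adjusted p = 1.0 in edgeR). With a library left out it ranged from 0.41 to 1.22, the former without control replicate 3 (unadjusted p = 0.374 in edgeR). Wnt7b, an epithelial ligand, was at 13.8, 10.8 and 24.9 CPM in control and 14.0, 11.1 and 63.0 CPM with AMD3100. The groups differed mainly through AMD3100 replicate 3, and the log2 fold change of 0.83 (SE 0.67) turned to -0.41 without that library.

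Wnt9a, best known from joint and skeletal development, lies at chr11:59306849-59333552 (GRCm38). It was at 5.42, 4.51 and 7.67 CPM in control, or 62, 62 and 77 counts, and at 1.90, 0.552 and 3.80 CPM with AMD3100, or 33, 6 and 31 counts. All treated libraries were below all control libraries. The log2 fold change was -1.50 (SE 0.84, unadjusted p = 0.110, adjusted p = 1.0 in edgeR). It was -2.25 without AMD3100 replicate 3 (unadjusted p = 0.0530 in edgeR) and -1.04 without AMD3100 replicate 2.

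The 8 other ligands tested were between 1.28 and 12.0 CPM on average, and their log2 fold changes ran from -0.84 (Wnt11) to 1.13 (Wnt10a). Wnt6, the most abundant of them, was at 8.76 to 14.3 CPM in control and 10.9 to 13.1 CPM with AMD3100. Wnt5a, the main ligand of the non-canonical branch in mesenchyme, was at 6.54 to 11.1 CPM in control and 1.93 to 9.60 CPM with AMD3100. Wnt10b had 24, 21 and 10 counts in control and 0, 33 and 0 counts with AMD3100, so a single treated library held all of its signal in that group. Without AMD3100 replicate 2 it passed both thresholds in edgeR (unadjusted p = 0.0230, adjusted p = 1.0), with both remaining treated libraries at 0.

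The 7 ligands under the filter were Wnt1, Wnt3a, Wnt7a, Wnt8a, Wnt8b, Wnt9b and Wnt16. Wnt3a and Wnt8a had 0 counts in every library. Wnt8b had 37 counts in AMD3100 replicate 1, 2 in AMD3100 replicate 3 and 0 elsewhere, and Wnt16 had 23 in AMD3100 replicate 1 and 0 to 5 elsewhere. Wnt9b had 10 counts, all in control replicate 2, Wnt7a had 5, all in AMD3100 replicate 3, and Wnt1 had 1 count in each of 2 libraries. Several of these genes sit beside a ligand that was detected, on GRCm38. Wnt3a, at 0, lies 16097 bp from Wnt9a, which held 271 counts over the 6 libraries. Wnt9b, with 10 counts, overlaps Wnt3, with 125 counts, by 1098 bp, and Wnt1, with 2 counts, lies 11650 bp from Wnt10b, with 88.

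All 12 receptors passed the filter, of which 4 had higher and 8 lower estimates with AMD3100 (median log2 fold change -0.18). Fzd2 was the most abundant receptor in CPM, at 242, 252 and 93.4 CPM in control and 144, 176 and 77.0 CPM in AMD3100-treated eSMGs. It was lower with AMD3100 in all 3 same-numbered pairs, yet control replicate 3 was below 2 of the treated libraries. The log2 fold change was -0.56 (SE 0.45, unadjusted p = 0.245 in edgeR). Without control replicate 3 it was -0.90 (unadjusted p = 0.0351, adjusted p = 0.997), and with replicates 1 and 2 alone it was -0.63 (unadjusted p = 0.00161, adjusted p = 0.719), both in edgeR. With a library left out it ranged from -0.90 to -0.30, the latter without AMD3100 replicate 3 (unadjusted p = 0.504 in edgeR).

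Lrp6, the co-receptor, was at 39.8, 47.5 and 28.2 CPM in control and 53.5, 48.7 and 23.3 CPM with AMD3100. Both groups spanned nearly the same range, and the log2 fold change was 0.12 (SE 0.38, 95% interval -0.75 to 0.99). Fzd3, a receptor for axon guidance and planar polarity, was at 33.8, 43.4 and 21.9 CPM in control and 35.0, 15.1 and 17.5 CPM with AMD3100. AMD3100 replicate 1 was as high as control, and the log2 fold change was -0.55 (SE 0.43), or -1.02 without that library (unadjusted p = 0.0509 in edgeR). Without control replicate 2 the value was -0.30 (unadjusted p = 0.555 in edgeR).

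Fzd1, at chr5:4753839-4758216 (GRCm38), had the lowest log2 fold change among the 41. It was at 1.92, 6.47 and 1.99 CPM in control, or 22, 89 and 20 counts, and at 1.09, 0.828 and 0.490 CPM with AMD3100, or 19, 9 and 4 counts. Control replicate 2 was well above the rest, and the gap between the groups otherwise lay between 1.09 and 1.92 CPM. The log2 fold change was -2.08 (SE 1.07, 95% interval -4.51 to 0.34), and without control replicate 2 it was -1.27 (unadjusted p = 0.419 in edgeR). DESeq2 gave an unadjusted p of 0.0333 and an adjusted p of 1.0. Fzd5, at chr1:64730558-64737750 (GRCm38), was at 3.93, 2.91 and 4.18 CPM in control and 0.863, 1.1 and 2.82 CPM with AMD3100. AMD3100 replicate 3 lay just below control replicate 2, and the log2 fold change was -1.21 (SE 0.92, unadjusted p = 0.220, adjusted p = 1.0 in edgeR). Without that library it was -1.91, and without AMD3100 replicate 1 it was -0.90 (unadjusted p = 0.419 in edgeR).

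**Figure D3:**
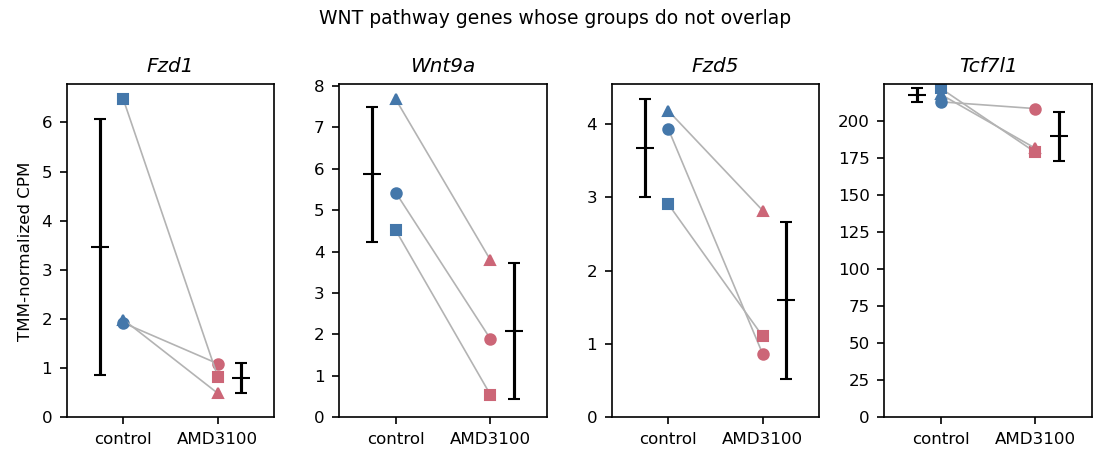
TMM-normalized CPM (y axes, from 0) of the 4 WNT genes whose groups did not overlap, with a point per library, grey lines between same-numbered libraries, and black bars for mean ± SD of 3 libraries. Control replicate 2 of Fzd1 stands at 6.47 CPM, and the gap in Tcf7l1 lies between 208 and 213 CPM.

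The other 7 receptors, Lrp5, Fzd4, Fzd6, Fzd7, Fzd8, Fzd9 and Fzd10, were between 1.70 and 24.97 CPM on average. Their log2 fold changes ran from -0.54 (Fzd9) to 0.95 (Fzd10), with standard errors of 0.40 to 1.42. Lrp5, the second co-receptor, was lower with AMD3100 in all 3 pairs, at 10.6, 18.6 and 13.5 CPM in control and 9.55, 15.5 and 11.4 CPM with AMD3100, but the groups overlapped.

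Of the 10 genes grouped as secreted antagonists, 7 were tested, with 3 higher and 4 lower estimates (median log2 fold change -0.14). Sfrp1, which binds WNT ligands and keeps them from their receptors, held 19.0% to 33.5% of all counts on WNT genes. It was at 473, 509 and 204 CPM in control and 484, 502 and 223 CPM with AMD3100. The same-numbered libraries nearly matched, with replicate 3 low in both groups, and the log2 fold change was 0.03 (SE 0.44, 95% interval -0.97 to 1.03). Sfrp2 was at 110, 93.2 and 87.9 CPM in control and 86.0, 102 and 70.0 CPM with AMD3100. The groups overlapped, with a log2 fold change of -0.17 (SE 0.28, 95% interval -0.81 to 0.46). Another gene model lies over the 3′ end of Sfrp2 on the opposite strand in GENCODE vM1, and whether the counting used strand is not given in the sources used here.

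Dkk2, which acts on LRP5 and LRP6, was at 14.9, 11.3 and 31.9 CPM in control and 11.3, 18.9 and 22.4 CPM with AMD3100. Replicate 3 was the highest library of each group, and the log2 fold change was -0.14 (SE 0.48). The other 4 tested, Dkk3, Sfrp4, Wif1 and Frzb, were between 1.33 and 9.75 CPM, with log2 fold changes from -1.97 (Frzb) to 0.38 (Dkk3). Frzb had 0 counts in control replicate 1 and in AMD3100 replicate 2. Dkk1, the best known of the DKK family, had 1 count in all 6 libraries together, Dkk4 had 0, and Sfrp5 had 14, 7 and 1 counts in control and 0, 8 and 3 counts with AMD3100.

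Of the 7 R-spondins and LGR receptors, 5 passed the filter. All 5 estimates were below 0 (median log2 fold change -0.25), that of Rspo1 only at -0.0045, and none passed the test. With a library left out the estimate reached 0.070 for Rspo3 and 0.077 for Lgr4. Of all genes tested, 52.2% had a higher estimate with AMD3100. Rspo3 was at 14.4, 36.4 and 30.5 CPM in control and 24.5, 29.4 and 16.8 CPM with AMD3100. The treated libraries lay within the range of the control libraries, and the log2 fold change was -0.20 (SE 0.42). Lgr4, a receptor for R-spondins in many epithelia, was at 12.7, 23.4 and 54.0 CPM in control and 12.4, 9.75 and 34.7 CPM with AMD3100. It was lower with AMD3100 in each pair and highest in replicate 3 of each group, and the log2 fold change was -0.67 (SE 0.63, unadjusted p = 0.319 in edgeR). Without AMD3100 replicate 3 the value was -1.45 (unadjusted p = 0.0374, adjusted p = 1.0 in edgeR), without control replicate 3 it was 0.08, and with replicate 3 as a batch term it was -0.68 (unadjusted p = 0.0388, adjusted p = 0.734 in edgeR).

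Lgr5, a marker of WNT-responsive stem cells in several epithelia, was at 5.68, 7.34 and 8.46 CPM in control and 7.02, 4.97 and 6.01 CPM with AMD3100. The groups overlapped and the log2 fold change was -0.25 (SE 0.50). Rspo1 and Rspo2 averaged 5.06 and 4.81 CPM, with log2 fold changes of -0.00 (SE 0.74) and -0.91 (SE 1.22). Rspo2 had 0 counts in AMD3100 replicate 2 only. Rspo4 (0, 16 and 1 counts in control, 19, 0 and 4 with AMD3100) and Lgr6 (7 counts, all in control replicate 3) did not pass the filter.

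All 4 TCF/LEF genes and Axin2 were tested, with 3 higher and 2 lower estimates (median log2 fold change 0.01). Tcf7l1, which mainly represses WNT targets, was the most abundant of them in CPM and lies at chr6:72626371-72789045 (GRCm38). It was at 213, 222 and 218 CPM in control and 208, 179 and 182 CPM with AMD3100. The treated libraries were all lower, with AMD3100 replicate 1 close to control. The means were 218 ± 4.55 and 190 ± 16.3 CPM (SD, n = 3), with a log2 fold change of -0.20 (SE 0.26, 95% interval -0.78 to 0.38, unadjusted p = 0.460, adjusted p = 1.0 in edgeR).

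Tcf7l2, the main TCF of the intestine, was at 159, 172 and 79.6 CPM in control and 140, 168 and 107 CPM with AMD3100, with a log2 fold change of 0.01 (SE 0.36, 95% interval -0.81 to 0.83). Lef1 was at 6.82, 7.56 and 4.08 CPM in control and 7.19, 5.71 and 2.45 CPM with AMD3100, with a log2 fold change of -0.26 (SE 0.62). In both genes replicate 3 was the lowest library of each group. Axin2, a target read as a measure of canonical signalling, was at 2.36, 3.35 and 4.08 CPM in control and 4.89, 5.52 and 2.82 CPM with AMD3100. The groups overlapped through AMD3100 replicate 3, and the log2 fold change was 0.44 (SE 0.70, 95% interval -1.15 to 2.03). Tcf7 averaged 1.14 CPM, with 0 counts in control replicate 1.

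**Figure D4:**
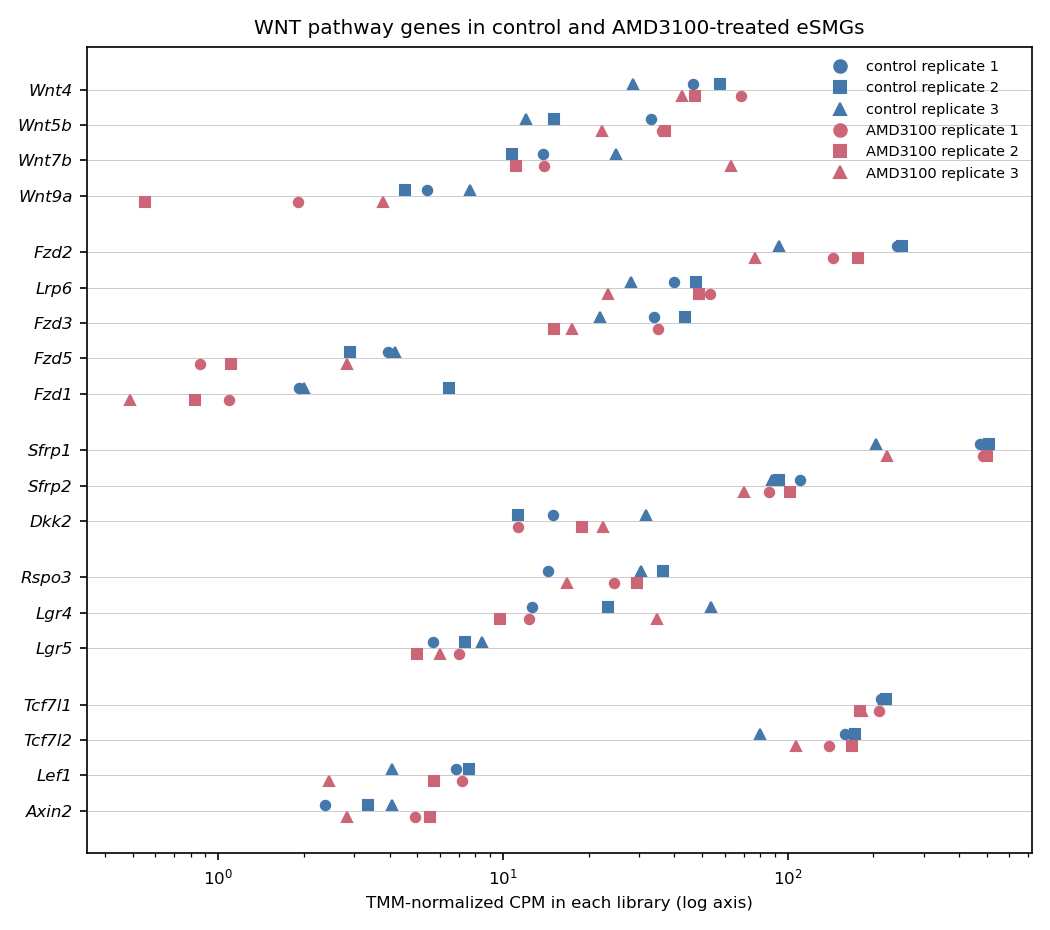
TMM-normalized CPM (x axis, log scale) of the 19 WNT genes described by library, with blue for control, red for AMD3100 and a marker shape for each replicate number. Sfrp1 leads at 204 to 509 CPM, Fzd1 is at 0.490 to 6.47 CPM, and the replicate 3 triangles lie to the left in both groups for Sfrp1, Fzd2 and Tcf7l2.

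The rest of the pathway was followed in 49 further genes that passed the filter, which secrete WNT ligands, serve as other co-receptors, degrade β-catenin, act with it in the nucleus or are its targets. Of these, 25 had higher and 24 lower estimates (median log2 fold change 0.00), and 1 was called, beside the 1.68% called of all genes tested. Estimates were higher for 2 of 2 genes of secretion, 3 of 9 co-receptors and their regulators, 11 of 15 of the degradation machinery, 5 of 14 nuclear partners and 4 of 9 targets. The gene called was Chd8, which encodes a chromatin remodeller that restrains β-catenin. It was at 54.5, 74.0 and 57.3 CPM in control and 107, 104 and 79.8 CPM with AMD3100, so that all treated libraries were above control. Chd8 rose by the unadjusted threshold alone (log2 fold change 0.65, SE 0.28, unadjusted p = 0.0482, adjusted p = 1.0 in edgeR; with the replicate block, unadjusted p = 0.00413 and adjusted p = 0.457). The call was lost with any 1 library left out other than AMD3100 replicate 3, with log2 fold changes of 0.56 to 0.80 over the 6 fits. It was also lost with upper quartile normalization, with no filter and with quantile normalization and limma.

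Ctnnb1, which encodes β-catenin itself, was at 541, 564 and 795 CPM in control and 580, 566 and 745 CPM with AMD3100. Both groups covered much the same range, and the log2 fold change was -0.01 (SE 0.29). Ulk4 lies over the 3′ end of Ctnnb1 on the opposite strand in GENCODE vM1. Wls, the carrier that brings WNT ligands to the cell surface, was at 51.6, 70.4 and 66.3 CPM in control and 70.3, 74.1 and 95.4 CPM with AMD3100, overlapping by less than 1 CPM, with a log2 fold change of 0.35 (SE 0.28). Porcn, the enzyme that attaches the lipid to WNT ligands, was at 0, 2.25 and 6.97 CPM in control and 2.13, 3.22 and 8.34 CPM with AMD3100, with a log2 fold change of 0.57 (SE 1.34).

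The groups did not overlap for 4 of the 49, Chd8 and Gsk3a above control and Ctbp1 and Sp5 below, beside the 7.44% of all genes tested. Neither the count of calls nor this count was tested against the share of all genes. Of these Gsk3a, Ctbp1 and Sp5 were chosen after their values were seen. Gsk3a, a kinase that marks β-catenin for degradation, was at 52.6, 38.3 and 49.4 CPM in control and 52.9, 73.2 and 62.0 CPM with AMD3100. Ctbp1, a co-repressor, was at 173, 204 and 232 CPM in control and 138, 147 and 160 CPM with AMD3100. Neither had an unadjusted edgeR p under 0.05, at 0.171 for Gsk3a and 0.128 for Ctbp1. Sp5, a direct target of β-catenin and TCF, had 56, 19 and 13 counts in control and 4, 0 and 5 counts with AMD3100. Its log2 fold change was -3.16 (SE 1.56, unadjusted p = 0.0735, adjusted p = 1.0 in edgeR), and DESeq2 gave an unadjusted p of 0.0223 and an adjusted p of 1.0. With the replicate block Twist1, a mesenchymal transcription factor, also passed both thresholds (log2 fold change -0.97, unadjusted p = 0.0193, adjusted p = 0.703 in edgeR).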

How the data were processed

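The authors deposited counts, a whole number of reads for every gene symbol and library that was not normalized, from 50 bp single reads of a QuantSeq 3′ library. The submitters' processing notes name mm10, Bowtie2 and edgeR, and the annotation and counting program are not given in the sources used here. Of 23282 lines per file, 22 exact repeats were left out. The WNT genes and the lists of pathway and marker genes were chosen with earlier results of these data known. Counts were fitted in edgeR 4.0.16 (R 4.3.3) with filterByExpr, TMM, glmQLFit and glmQLFTest on the 3 control and 3 AMD3100 libraries, and standard errors were derived from the coefficient and its F.

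The replicate numbers shared by the labels of both groups were taken as pairs, though a pairing was clear only for number 3. Deviations from the group means of same-numbered libraries correlated across genes at 0.156, 0.147 and 0.549. These are correlations over genes, which are not independent, and unmatched libraries numbered 1 and 2 correlated at 0.167 and 0.132 too. Where no other wording is used, values come from the fit without the block.

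Genes were given in full if their unadjusted p was under 0.05 or their groups did not overlap, if they were among the 3 most abundant of their 5 role groups, and for Axin2. Of the other pathway genes, those with an unadjusted p under 0.05, Ctnnb1, Wls and Porcn were named. Alternatives were DESeq2 1.42.0, upper quartile factors, quantile normalization of log2(count + 1) with limma 3.58.1, a minimum of 10 counts in every library, no filter, robust estimation, the replicate block, replicate 3 as a batch, replicates 1 and 2 only, a fold change of at least 2, and each library left out. Other scalings for the overlap of groups, and alternatives for adjusted calls over all genes, were added after seeing the data. All 53 symbols matched RefSeq GRCm38.p6. Shared reads were sought in GENCODE vM1 on NCBIM37, another build, with minimap2 2.31-r1302, from reads of 50 bases every 25 bases.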

Additional observations from a re-analysis of the deposited data

How the results depend on the processing

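No WNT gene had an adjusted p under 0.05 in any alternative. The number of WNT genes passing both unadjusted thresholds, 0 in edgeR without a block, was 1 with DESeq2 (Fzd1), 2 with quantile normalization and limma (Fzd1 and Wnt9a), 1 with the replicate block (Wnt5b), 2 with replicate 3 as a batch (Lgr4 and Wnt5b) and 1 with replicates 1 and 2 only (Fzd2). For all genes the number was 228 (1.68%) in edgeR without a block, 325 (2.39%) with DESeq2, 229 (1.68%) with upper quartile normalization and 300 (1.64%) without a filter. It was 467 (3.43%) with quantile normalization, 598 (4.39%) with the replicate block, 563 (4.14%) with the batch term and 613 (4.39%) with replicates 1 and 2. Adjusted calls over all genes were 5 with DESeq2, 3 with the replicate block and 7 with the batch term, against 0. For the other pathway genes the number passing both unadjusted thresholds was 2 with DESeq2 (Chd8 and Sp5), 0 with upper quartile normalization, 0 without a filter, 2 with the replicate block (Chd8 and Twist1) and 2 with replicates 1 and 2 (Chd8 and Dvl1), against 1. The 1 pathway gene called with quantile normalization was Sp5 in place of Chd8. The block and the batch term also turned Ctnnb1 from -0.01 to 0.0038 and 0.0037. With replicates 1 and 2 only, the log2 fold change turned to -0.00072 for Sfrp1, 0.19 for Dkk2, 0.077 for Rspo3, -0.11 for Tcf7l2 and 0.046 for Ctnnb1. The block changed no other call among the 23 WNT and pathway genes named by rule; markers were not compared under it. The causes were not tested.

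With each library left out in turn, 0 to 1 WNT genes, 0 to 1 other pathway genes and 163 to 547 of all genes were called, with the highest numbers without control replicate 3 (547) and without AMD3100 replicate 3 (451). The log2 fold change then ranged from -0.41 to 1.27 for Wnt7b, -0.10 to 0.40 for Lrp6, -0.28 to 0.31 for Sfrp1, -0.42 to 0.43 for Dkk2, -0.51 to 0.070 for Rspo3, -1.45 to 0.077 for Lgr4, -0.26 to 0.21 for Tcf7l2, -0.59 to 0.057 for Lef1, -0.16 to 0.20 for Ctnnb1 and -0.22 to 2.0 for Porcn. The other 13 of the 23 genes named by rule kept their sign in every alternative that could test them. The median log2 fold change over WNT genes, -0.14, lay between -0.20 and -0.09 with a library left out, and between -0.16 (upper quartile normalization) and -0.07 (replicate block) in the other alternatives. Standard errors were larger for WNT genes under 10 CPM (median 0.92) than above (0.42), and the parts of depth and of the spread between tubes cannot be told apart.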
